A study of Mus musculus with 4 samples.

Results

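To examine the genes of the elastic fibre and of the matricellular protein periostin in muscle precursor cells without Tet2, 10 genes were read from the RNA sequencing table of cultured mouse myoblasts: Eln, Fbn1, Fbn2, Fbln1, Fbln2, Fbln5, Mfap2, Mfap4, Mfap5 and Postn. They were found by their symbols among the 24445 genes of the table, which holds all 10. The set was proposed with the values of the table known, since Postn and Mfap5 differed in opposite directions, and so was selected on the same contrast that is described here. The directions and sizes below are therefore a description, and no test was made on them.

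The WT myoblasts came from C57BL/6 mice with an intact Tet2 gene. The Tet2 KO myoblasts came from mice of the same strain that carry a constitutive deletion of a coding exon of Tet2, the gene of an enzyme that oxidises 5-methylcytosine in DNA. Per the study's methods, young adult males were used unless stated otherwise. In both groups the satellite cells of hindlimb muscle, the resident stem cells of the tissue, were isolated by flow cytometry and grown on collagen for at least 3 days, in a proliferating medium that the labels call T cell medium, until they had become myoblasts. Each group had 2 libraries. The table gives 1 value per gene and group, as FPKM, a fragment count scaled for the length of the transcript and the number of mapped fragments. No value has a replicate error, and the depth of the libraries is unknown.

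Elastic fibres have a core of cross-linked elastin, which is laid down on a scaffold of microfibrils. Fibrillins form the backbone of the microfibrils, small microfibril-associated glycoproteins bind to them, fibulins link elastin to the scaffold and to other matrix, and lysyl oxidases cross-link the elastin. Matricellular proteins such as periostin are secreted into the matrix, where they act on cells and on the assembly of the matrix more than as a structural part. Microfibrils also hold latent growth factors of the TGF-beta family.

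The transcript of elastin was at or near 0 in both groups, while 1 fibrillin (Fbn1) and 2 fibulins (Fbln1 and Fbln2) were above 77.1% or more of all genes. Of the 10 genes, 5 had a mean of at least 1 FPKM over both groups (Fbn1, Fbln1, Fbln2, Mfap5 and Postn), and 5 were below it (Eln, Fbn2, Fbln5, Mfap2 and Mfap4). Below 1 FPKM lay 52.2% of all genes in the table. In WT the order of the levels from the top was Fbn1, Fbln1, Fbln2, Postn and Mfap5, and in Tet2 KO Fbln2 stood first, ahead of Fbn1 and Fbln1. Without replicate values it cannot be said which neighbours in these orders differ. The summed level of the 10 genes was 84.6 FPKM in Tet2 KO against 66.4 FPKM in WT. Fbln2 made up 34.1% of this sum in Tet2 KO and 22.5% in WT, and Postn made up 7.15% and 13.5%. In such bulk samples a lower or higher number of cells of a type and less or more RNA per cell cannot be told apart.

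**Figure D1:**
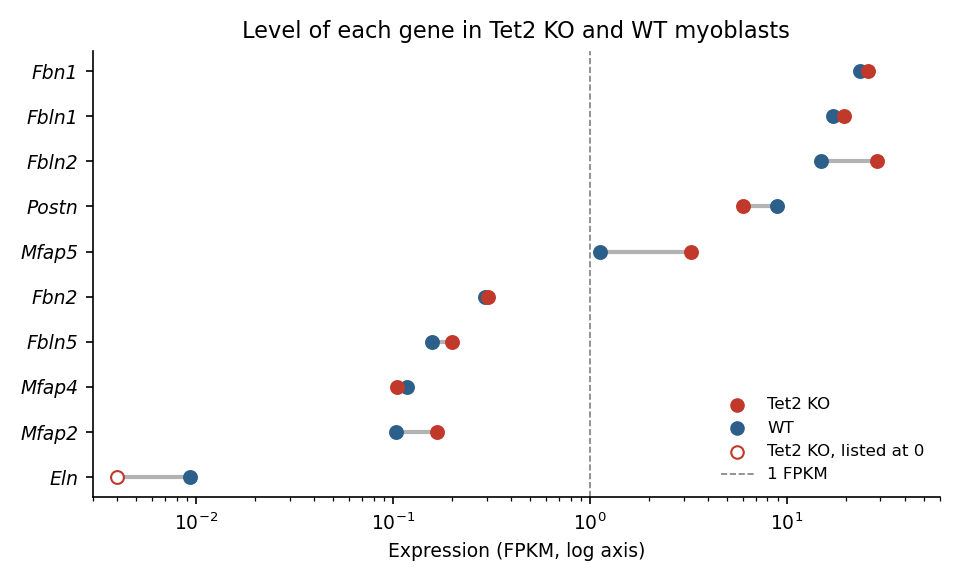
Level of each of the 10 genes in Tet2 KO (red) and WT (blue) myoblasts, in FPKM on a log axis, with 1 point per group and a grey line joining the groups. The open point marks Eln in Tet2 KO, which was listed at 0 and is drawn at the left edge. The 5 genes right of the dashed line at 1 FPKM lie between 1.13 and 28.9 FPKM, and the other 5 are all under 0.31 FPKM.

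The sequence before the start site is shown for Postn and Fbln1, the 2 genes above 1 FPKM for which a window of 250 bases lay outside the annotated transcripts of the gene. Both come from RefSeq promoters of build GRCm38.p6, are on the plus strand and end at the base before the annotated start site. Capitals mark matches to CANNTG (the E box, a class of sites some of which MyoD and related factors can bind), TATAAA or GGGCGG. The study names CAGCTG as the top MyoD sequence, and neither window below holds it. The Postn window is chr3:54360857-54361106 and the Fbln1 window is chr15:85205699-85205948.
Postn: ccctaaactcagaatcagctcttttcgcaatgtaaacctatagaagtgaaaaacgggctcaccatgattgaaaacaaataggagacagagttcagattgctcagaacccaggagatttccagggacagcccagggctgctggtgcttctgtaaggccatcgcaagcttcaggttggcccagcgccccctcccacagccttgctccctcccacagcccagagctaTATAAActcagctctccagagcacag
Fbln1: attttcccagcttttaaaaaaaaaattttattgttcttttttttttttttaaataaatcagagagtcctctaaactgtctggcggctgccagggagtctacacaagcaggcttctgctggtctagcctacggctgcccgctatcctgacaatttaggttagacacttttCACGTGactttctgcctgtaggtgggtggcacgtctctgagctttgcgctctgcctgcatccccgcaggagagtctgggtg

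The Postn window held 1 TATAAA, which began 26 bases before the start site, and no E box. The Fbln1 window held 1 E box, CACGTG, which began 81 bases before the start site. Promoter windows were taken for 6 of the 10 genes, with 10 windows in all. Eln, Mfap4 and Mfap5 had no entry. Any window on chromosome 18, where Fbn2 lies, was left out, so Fbn2 was not examined. CANNTG was in 5 of the 10 windows, beside 66.2% of the 32841 promoter windows of the same length in the table, and its form CAGCTG was in 1, that of a second start site of Fbln1, beside 13%. The 2 windows of Fbln1 overlap, and their CACGTG, 81 and 140 bases before the respective start sites, is one and the same site, counted in both. TATAAA was in 1 window beside 12.4%, GGGCGG was in 5 beside 32.7%, and TGANTCA was in none beside 6.75%. Both strands were searched, and CAGCTG is also a match to CANNTG. The windows of Postn were the poorest in CG dinucleotides, with 3 and 4, and an upstream window of Fbln5 was the richest, with 21. The median over all promoter windows was 6, with quartiles of 2 and 16. The matches describe the letters of these windows and not the binding or the methylation of any of them, which were not measured in this table.

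Eln, the gene of elastin, was listed at 0 in Tet2 KO and at 0.00933 FPKM in WT. Its locus spans 135178465 to 135223193 of chromosome 5 in mm9, the build of the table. Its transcript in GENCODE vM1 has 37 exons and 2583 bases, of which 2580 are coding. The start of the locus is shifted by -1186 bases from that gene. As the gene lies on the minus strand, the measured gene model extends past the end of this transcript. Both values are near 0 and no ratio is given, since 1 group is listed at 0.

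The fibrillins differed by far more from each other than between the groups. Fbn1 encodes the main fibrillin of adult tissue, and its locus spans 125126330 to 125332174 of chromosome 2 (minus strand, 65 exons in the longest coding transcript). It had 23.5 FPKM in WT and 26.1 FPKM in Tet2 KO, a log2 ratio of 0.14 on the log2(FPKM + 1) scale. Its level was above that of 83.6% of all genes in WT and of 85.1% in Tet2 KO. Fbn2, on chromosome 18 and best known from development, had 0.304 FPKM in Tet2 KO against 0.294 FPKM in WT. Fbn1 was thus 85.7 times Fbn2 in Tet2 KO and 80.1 times in WT. The exons of Fbn1 overlap those of Gm9913 on the opposite strand. The library kit does not mark the strand, so the fragments of such pairs cannot be told apart.

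Among the fibulins Fbln2 stood higher in Tet2 KO, while Fbln1 was nearly level. Fbln2 encodes a fibulin of basement membranes and elastic tissue, and its locus spans 91162758 to 91222534 of chromosome 6. It had 14.9 FPKM in WT and 28.9 FPKM in Tet2 KO. This is 1.94 times the WT value with no pseudocount and a log2 ratio of 0.91 with the pseudocount of 1. Fbln1, whose locus spans 85036379 to 85116724 of chromosome 15, had 19.5 FPKM in Tet2 KO against 17.1 FPKM in WT, with a log2 ratio of 0.18. The level of Fbln2 was 0.87 times that of Fbln1 in WT and 1.48 times in Tet2 KO. Fbln5, which encodes the fibulin that guides elastin onto microfibrils, had 0.159 FPKM in WT and 0.2 FPKM in Tet2 KO, from a locus at 102984775 to 103057329 of chromosome 12. Fbln1 was 97.7 times Fbln5 in Tet2 KO and 108 times in WT.

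Of the microfibril-associated genes only Mfap5 passed 1 FPKM, and it stood higher in Tet2 KO. Mfap5 and Mfap2 encode the related glycoproteins MAGP-2 and MAGP-1, which bind fibrillin. Mfap5 had 3.27 FPKM in Tet2 KO against 1.13 FPKM in WT, a log2 ratio of 1.00. The level is low and the pseudocount takes up much of the difference, since the Tet2 KO value was 2.89 times the WT value with no pseudocount (log2 ratio of 1.53). In the table Mfap5 spans 122463602 to 122479305 of chromosome 6, and starts 7739 bases downstream of the gene in GENCODE vM1, so that an annotated upstream start is not part of the measured gene model. Fbn1 was 7.97 times Mfap5 in Tet2 KO and 20.8 times in WT. Mfap2 had 0.104 FPKM in WT and 0.168 FPKM in Tet2 KO. Mfap4, whose protein binds elastin and fibrillin, had 0.106 FPKM in Tet2 KO against 0.118 FPKM in WT, and its exons overlap those of Mapk7 on the opposite strand. Both lie so low that no direction was read from them. Mfap2 spans 140566339 to 140571899 of chromosome 4, and Mfap4 spans 61298933 to 61302207 of chromosome 11.

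Of the 5 genes above 1 FPKM, Postn alone had a lower value in Tet2 KO. It encodes periostin, a protein of fasciclin domains that binds integrins and collagen and is known from healing tissue, and its locus spans 54165029 to 54194963 of chromosome 3. It had 8.95 FPKM in WT and 6.05 FPKM in Tet2 KO. The log2 ratio was -0.50 with the pseudocount of 1 and -0.57 with none, so the WT value was 1.48 times the Tet2 KO value. Fbn1 was 4.31 times Postn in Tet2 KO and 2.63 times in WT. Tgfbi, the other fasciclin-domain gene of the lists examined, went the other way, with 23.4 FPKM in Tet2 KO against 7.08 FPKM in WT. The sum of Tgfbi and Postn was therefore 16 FPKM in WT and 29.5 FPKM in Tet2 KO, with Postn as 55.8% of it in WT and 20.5% in Tet2 KO.

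A difference was counted when it reached 1.5-fold, a log2 ratio of 0.58 in size, among genes with a mean of at least 1 FPKM. Of the 11692 such genes, 3.72% were that much higher and 2.89% that much lower in Tet2 KO. Of the 5 genes described here 2 were higher by this measure, Fbln2 and Mfap5, and none was lower. Postn, at -0.50, lay short of it. Since these 5 genes were chosen on this contrast, nothing is read from the count. Leukocyte markers summed to 365 FPKM in Tet2 KO and 92.8 in WT, and fibroblast markers to 490 and 447. Most of the fibroblast sums was Ly6a (288 FPKM in Tet2 KO, 278 in WT) and Col3a1 (171 and 152). The 7 fibroblast markers past 1 FPKM had a median log2 ratio of 0.32. The part of these markers in the values of the 5 genes was not tested. The median log2 ratio of the 5 genes was 0.18, beside -0.0044 for all 11692 genes, whose quartiles were -0.11 and 0.09. Among all 11692 genes 241 had a higher ratio than Mfap5 and 277 a higher ratio than Fbln2, and 421 had a lower ratio than Postn. As the genes were chosen on this contrast, nothing is read from their median or from these places either.

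**Figure D2:**
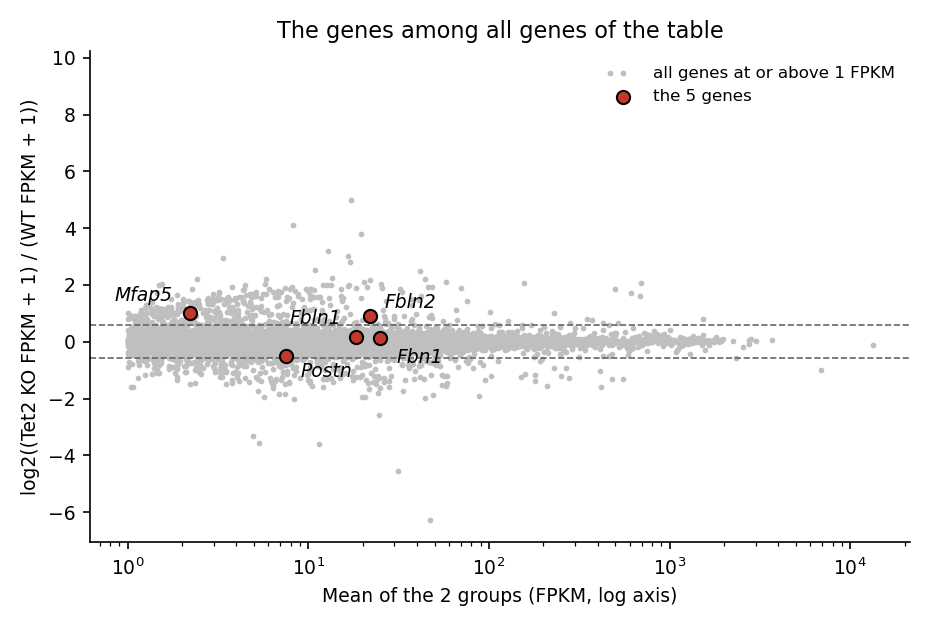
Each grey point is 1 of the 11692 genes with a mean of at least 1 FPKM, by its mean level over both groups (log axis) and its log2 ratio of Tet2 KO to WT at a pseudocount of 1. The dashed lines mark 1.5-fold. Mfap5 and Fbln2 lie above the upper line, Fbn1 and Fbln1 near 0, and Postn just inside the lower line.

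**Figure D3:**
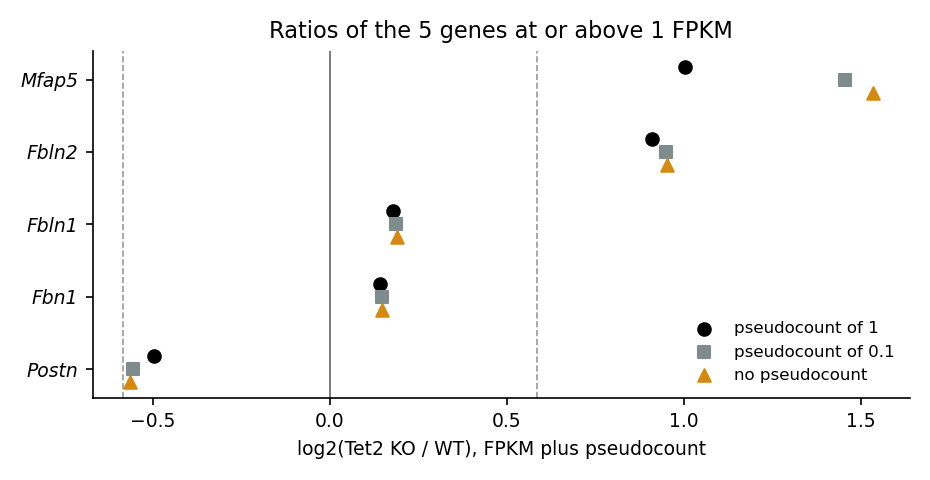
Log2 ratio of Tet2 KO to WT for the 5 genes with a mean of at least 1 FPKM, with a pseudocount of 1, of 0.1 and with none. Dashed lines mark 1.5-fold and the solid line marks equal levels. The ratio of Mfap5 runs from 1.00 to 1.53, and those of the other 4 genes move by under 0.1.

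The other genes of elastic fibre assembly and cross-linking were examined as a list of 22 genes, of which 15 had a mean of at least 1 FPKM. Of the 15, 3 were at least 1.5-fold higher in Tet2 KO, 1 was lower and 11 were neither. Of all 11692 genes with a mean of at least 1 FPKM, 3.72% were that much higher and 2.89% that much lower. The median log2 ratio of the list was 0.16, or 0.04 with no filter on the level. At a limit of 2-fold, still with the pseudocount of 1, 1 gene was higher, beside 243 of all 11692 genes. This list and those below were chosen with earlier results of these data known, so nothing is read from their counts. The carrier of latent TGF-beta, Ltbp1, was the most abundant, with 83.8 FPKM in Tet2 KO against 83.3 FPKM in WT. Emilin2, a glycoprotein of the elastic fibre surface, was the highest by ratio, with 2.79 FPKM in WT and 8.1 FPKM in Tet2 KO (log2 ratio of 1.26). Efemp1, which encodes a fibulin close to Fbln5 in structure, had 2.12 FPKM in Tet2 KO against 0.668 FPKM in WT. Its log2 ratio was 0.90, and 1.67 with no pseudocount, which is past 2-fold. Loxl1, the lysyl oxidase that fibulin 5 binds, had 4.66 FPKM in WT and 8.18 FPKM in Tet2 KO. The lowest ratio was that of Adamtsl2, a binding partner of fibrillin and Ltbp1, with 0.813 FPKM in Tet2 KO against 2.84 FPKM in WT (log2 ratio of -1.08).

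A list of 21 further matricellular genes was set beside Postn. Of the 11 with a mean of at least 1 FPKM, 5 were at least 1.5-fold higher in Tet2 KO and none was lower. For all 11692 genes these shares were 3.72% and 2.89%. The median log2 ratio of the 11 was 0.32. The median was 0.04 with no filter on the level and 0.63 at a mean of at least 5 FPKM. At a limit of 2-fold 2 genes were higher, beside 243 of all 11692 genes. Spp1, which encodes osteopontin, was the most abundant, with 1115 FPKM in WT and 1938 FPKM in Tet2 KO. Tgfbi had the highest log2 ratio, 1.60. Tnc, the gene of tenascin C, had 305 FPKM in Tet2 KO against 151 FPKM in WT. Thbs2 had a log2 ratio of 0.79 and Ctgf one of 0.63. The lowest ratio was that of Wisp1, at -0.27, with 21.1 FPKM in WT and 17.3 FPKM in Tet2 KO. Postn, at -0.50 with the same pseudocount of 1, lay below the lowest of these 11 ratios. It was chosen on this contrast, so nothing is read from its place.

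Enzymes that can degrade elastin formed a list of 12 genes, of which 11 had a mean of at least 1 FPKM and Mmp7 was listed at 0 in both groups. Of the 11, 6 were at least 1.5-fold higher in Tet2 KO and 2 were lower, beside 3.72% and 2.89% of all 11692 genes. The median log2 ratio of the 11 was 0.80. The median was 1.49 with a pseudocount of 0.1 and 1.87 at a mean of at least 5 FPKM. At a limit of 2-fold none was lower, beside 142 of all 11692 genes. Those higher were the neutrophil granule proteases Ctsg (log2 ratio of 2.17), Prtn3 (1.88) and Elane (1.86), the macrophage elastase Mmp12 (1.94), the cathepsin Ctss (1.93) and the gelatinase Mmp9 (0.80). All 8 leukocyte markers examined below were also higher in Tet2 KO, and their part in this list was not tested. Elane had 16.6 FPKM in Tet2 KO against 3.84 FPKM in WT. The most abundant member, Ctsl, went the other way, with 300 FPKM in WT and 157 FPKM in Tet2 KO (log2 ratio of -0.92). Mmp14, a membrane-bound metalloproteinase, had 23.3 FPKM in Tet2 KO against 36.6 FPKM in WT.

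Growth factors that microfibrils hold were mostly low, and 3 of 7 had a mean of at least 1 FPKM. Tgfb3 had 21.6 FPKM in WT and 8.31 FPKM in Tet2 KO, a log2 ratio of -1.28, and Tgfb2 had 1.46 FPKM in Tet2 KO against 2.75 FPKM in WT, a log2 ratio of -0.61. Tgfb1 had a log2 ratio of 0.45. The median of the 3 genes was -0.61. Integrin subunits that can bind RGD sites of matrix proteins had a median of -0.04 over 7 of 8 genes, and of 0.07 with no filter on the level. Of these Itgb3 was higher in Tet2 KO, with 4.03 against 1.99 FPKM, Itgb8 was lower, with 4.3 against 7.93 FPKM, and the most abundant, Itgb1, had 227 FPKM in WT and 215 FPKM in Tet2 KO.

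**Figure D4:**
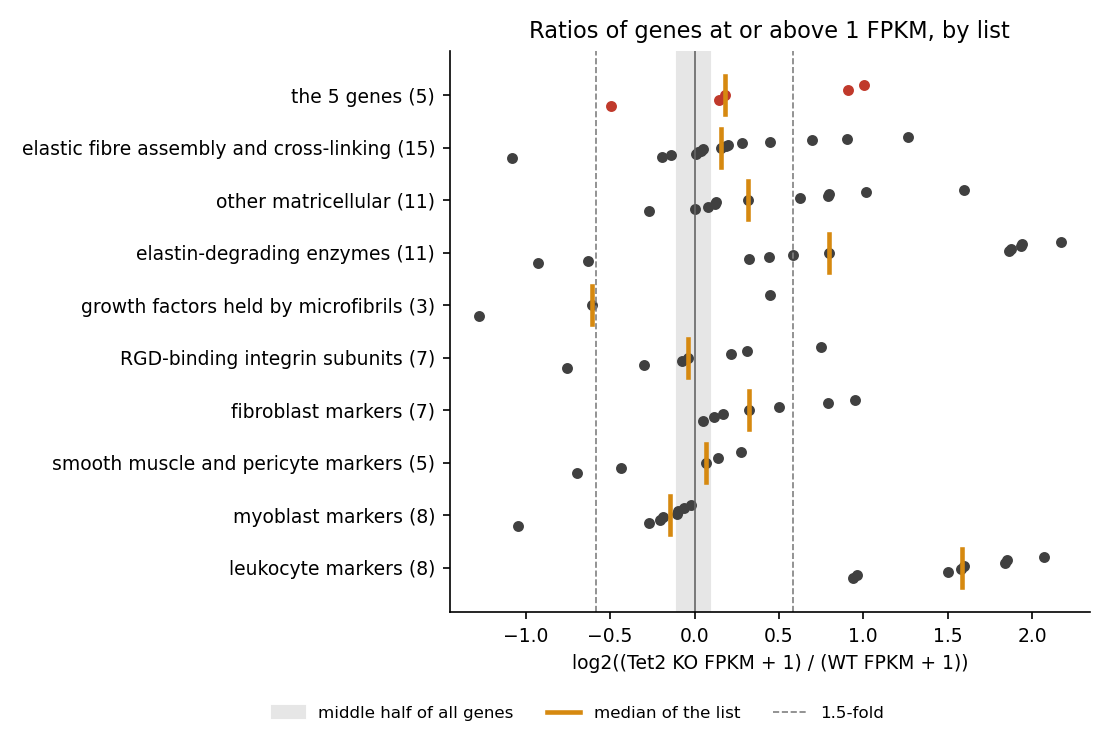
Log2 ratios at a pseudocount of 1 for the 5 genes (red) and for the genes of each list with a mean of at least 1 FPKM (dark points; their number is in brackets). The orange bars mark medians, the grey band the quartiles of all genes (-0.11 to 0.09) and the dashed lines 1.5-fold. The leukocyte markers lie highest, with a median of 1.59, and the 5 genes spread from -0.50 to 1.00.

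The labelled cell type and other possible sources of matrix transcripts were checked by marker lists. All 8 myoblast markers were above 1 FPKM, among them Myod1 with 313 FPKM in Tet2 KO against 336 FPKM in WT. Pax7, a satellite cell gene, had the highest log2 ratio of the list, -0.02, and 1 gene, Myog (myogenin), reached 1.5-fold, with 554 FPKM in WT and 268 FPKM in Tet2 KO. Tet2 itself had 5.79 FPKM in Tet2 KO against 6.64 FPKM in WT. This gene-level value covers all exons, so it does not check the labels.

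Of 12 fibroblast markers, 7 had a mean of at least 1 FPKM and all 7 had a positive log2 ratio, with a median of 0.32. Dcn (0.95) and Col1a2 (0.79) were at least 1.5-fold higher in Tet2 KO, and none was 2-fold higher with the pseudocount of 1. With no pseudocount Dcn passed 2-fold, at a log2 ratio of 1.16. The summed level of the list was 447 FPKM in WT and 490 FPKM in Tet2 KO, of which Ly6a made up 278 FPKM in WT and 288 in Tet2 KO. No fibroblast marker was at 0 in both groups. All 8 leukocyte markers were at least 1.5-fold higher in Tet2 KO, beside 3.72% of all 11692 genes, and none was at 0. Their log2 ratios were 2.07 for Lyz2, 1.85 for Tyrobp, 1.84 for Itgam, 1.60 for Csf1r, 1.58 for Fcer1g, 1.5 for Ptprc, 0.96 for Laptm5 and 0.94 for Cd68. Their summed level was 365 FPKM in Tet2 KO against 92.8 FPKM in WT, although CD45 (Ptprc) and CD11b (Itgam) were negative markers of the sort. All 8 leukocyte markers and all 7 fibroblast markers past 1 FPKM thus had positive log2 ratios. All 8 myoblast markers and the 2 tendon markers past 1 FPKM had negative ones. The median over all 11692 genes was -0.0044, so either sign was common, and nothing is read from the signs. Smooth muscle and pericyte markers summed to 265 FPKM in WT and 176 FPKM in Tet2 KO, which was mainly Acta2 (236 FPKM in WT, 146 in Tet2 KO), while the defining markers Myh11 and Cnn1 were under 0.2 FPKM in both groups. Pdgfrb, a pericyte marker, had the highest log2 ratio of that list, 0.27. Endothelial markers summed to 4.44 FPKM in Tet2 KO and 5.39 in WT, with Pecam1 at 1.48 in Tet2 KO and 1.63 in WT. Of the tendon markers Tnmd was listed at 0 in both groups, and Scx had 50.6 FPKM in Tet2 KO against 59.7 FPKM in WT, and Mkx had a log2 ratio of -0.37. The part of any of these cell types in the values of Fbln2, Mfap5 and Postn was not tested.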

How the data were processed

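TruSeq RNA libraries, whose kit does not mark the strand, were sequenced from 2 WT and 2 Tet2 KO myoblast cultures. Per the study's methods and the submitters' processing notes, the authors trimmed reads, aligned read pairs to mm9 with TopHat 2.0.13 and estimated FPKM with Cuffdiff 2.2.1. The gene annotation and the way the libraries were combined were not given in the sources used here. The deposited FPKM values, 1 per gene and group, were read as pooled over the libraries of a group. Columns with the authors' comparison (fold changes, test statistics, p-values and calls) were not used.

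Log2 ratios are log2((Tet2 KO FPKM + 1) / (WT FPKM + 1)), which understates changes of low genes. Counts past 1.5-fold and list medians were taken over genes with a mean of at least 1 FPKM. With 1 value per group no test was possible, and no value carries an error. The 10 genes, the lists and the limits were chosen with earlier results of these data known. Named from each list were the most abundant gene, those with the highest and lowest ratio and those past 1.5-fold. Coordinates are those of the table in mm9, with 1 added to starts. Exons and lengths came from GENCODE vM1 (the same build), where all 10 genes lay on the same chromosome. Promoters came from RefSeq. The log2 ratio, the counts past 1.5-fold and the motif search were checked on simulated data without noise, for genes of higher level only. Low levels, list medians and shares were not part of that check. Python 3.11.15, numpy 2.4.6, pandas 2.3.3 and matplotlib 3.10.9 were used.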

Additional observations from a re-analysis of the deposited data

How the results depend on the processing

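No paired analysis was possible because the table holds 1 value per group and none per library, and for the same reason no library could be left out. Ratios were recomputed with a pseudocount of 0.1 and with none, after scaling to TPM and after median centring, and counts also with no filter, with a mean of at least 5 FPKM and at limits of 2-fold and of a log2 ratio of 0.32. A ratio was taken as moved when it shifted by 0.1 or more.

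Mfap5 moved from 1.00 to 1.45 with a pseudocount of 0.1, 1.53 with none and 1.18 under TPM. Fbn1, Fbln1, Fbln2 and Postn did not move by that much. The count of 2 genes higher fell to 1 at 2-fold (Fbln2 lost) and to 1 with a mean of at least 5 FPKM (Mfap5 lost), and the count of 0 lower became 1, Postn, at the log2 limit of 0.32. For all genes the counts of 435 higher and 338 lower became 182 and 207 with a mean of at least 5 FPKM, 243 and 142 at 2-fold, and 823 and 822 at 0.32. The median of the growth factor list turned from -0.61 over 3 genes to 0.0072 with no filter, which added 4 genes under 1 FPKM. With no filter, the list medians became 0.04 for elastic fibre assembly (from 0.16), 0.04 for the other matricellular genes (from 0.32), 0.69 for elastin-degrading enzymes (from 0.80), 0.07 for integrin subunits (from -0.04) and -0.12 for tendon markers (from -0.30). At a mean of at least 5 FPKM they became 0.63 for matricellular genes and 1.87 for elastin-degrading enzymes. At that level they were -1.28 for growth factors (Tgfb3 alone) and 0.48 for fibroblast markers (from 0.32). With a pseudocount of 0.1 they became 0.43, 1.49, -0.87 and 0.44 for these 4 lists and 1.94 for leukocyte markers (from 1.59). Under TPM those of elastin-degrading enzymes and leukocyte markers became 1.02 and 1.73. At 2-fold with the pseudocount of 1, genes higher fell from 3 to 1 for elastic fibre assembly and 5 to 2 for matricellular genes. They fell from 2 to 0 for fibroblast markers and 1 to 0 for integrins. Of the genes so lost, Efemp1, Dcn and Itgb3 were past 2-fold with no pseudocount (log2 ratios of 1.67, 1.16 and 1.02). Genes lower fell from 2 to 0 for elastin-degrading enzymes, 2 to 1 for growth factors and 1 to 0 for integrins and for smooth muscle markers. The unknown depth limits Eln, Fbn2, Fbln5, Mfap2 and Mfap4 most.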

Other observations

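For gene families the balance of the members is given here by group, as shares of summed FPKM with no error. Fibulins, counted over 7 genes, summed to 98.3 FPKM in Tet2 KO against 78.8 FPKM in WT. The most abundant was Efemp2, the fibulin needed for elastin cross-linking, which had nearly the same level in both groups (47.4 and 45.8 FPKM) but made up 48.2% of the sum in Tet2 KO and 58.1% in WT. Fbln2 made up 29.4% and 18.9%. It is one of the genes chosen on this contrast, and its higher level in Tet2 KO lowers the shares of the other fibulins there. The 5 lysyl oxidases summed to 50.1 and 46.8 FPKM, and Lox itself made up 50.8% in Tet2 KO and 62.5% in WT while Loxl1 made up 16.3% and 9.95%. Of the emilins, Emilin1 made up 60.3% in Tet2 KO and 77.9% in WT. The fibrillins and latent TGF-beta binding proteins kept closer shares, with Ltbp1 at 67.4% and 68.6% and Fbn1 at 21% and 19.4%.

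Efemp2, Ltbp1, Lox and Fbn1 were all above 20 FPKM in both groups, in bulk cultures where Eln was at or near 0. Ly6a, which encodes the Sca1 antigen that was a negative marker in the sort, had 278 FPKM in WT and 288 FPKM in Tet2 KO after culture.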
